A study of Mus musculus with 9 samples.

Results

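Potassium channel genes were taken as the protein-coding genes of the GENCODE M21 annotation (GRCm38, mm10) whose symbol starts with Kcn. There were 94 of them among 21951 protein-coding genes, and 31 of the 94 had a receptor peak in at least 1 of the lists described here. All 31 had a CORT peak of at least 1 receptor (33.0%, 24.3 to 43.0), against 24.0% of all protein-coding genes and 29.6% of other genes standardised to the same spans. A gene was assigned every peak whose summit lay between its annotated start and end or within 5 kb on either side. Most of the 31 are described with values below, and the other 63 had no peak in any list.

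The peaks came from ChIP-nexus, a chromatin immunoprecipitation in which an exonuclease digests the precipitated DNA up to the crosslinked protein, in N2A cells, a mouse neuroblastoma line. All cells were transiently transfected with both EGFP-tagged glucocorticoid receptor (GR) and mCherry-tagged mineralocorticoid receptor (MR), and each receptor was precipitated through its tag, so the binding measured was that of introduced receptors. The groups were (i) vehicle, (ii) 100 nM corticosterone (CORT) for 20 minutes, and (iii) the same CORT treatment with washing and then 40 minutes in medium lacking CORT, called washout. The description in the deposit names mouse receptors and the methods of the study name rat constructs. Input chromatin, which was not precipitated, was prepared for each treatment. The 3 replicates of a condition were combined before peaks were called, so each condition had 1 list and no value below has a replicate error or a test between treatments. Percentages carry 95% Wilson intervals, which cover counting error only. The peak lists hold no read counts, so the number of reads behind a single peak is not known from them, and a site that a list lacks could not be detected at its depth and threshold. The strength of a peak is given as −log10 p against input, which grows with depth, so it orders the peaks of 1 list and is no measure of binding across lists. Peak lists hold no expression, so the neuroblast label of the cells could not be checked against marker genes, and whether a channel gene was transcribed is not known from them.

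Potassium channels let potassium leave or enter the cell along its electrochemical gradient and so set the resting potential, end action potentials and limit repetitive firing. Voltage-gated channels open on depolarisation, calcium- and sodium-activated channels open when those ions rise inside the cell, inward rectifiers and leak channels hold the membrane near rest, and auxiliary subunits change the gating or the surface level of the pore-forming subunits. GR and MR are hormone-activated transcription factors that bind the glucocorticoid response element (GRE), a pair of inverted 6-base sites separated by 3 bases.

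The sequences below show stretches at or near receptor peaks of these genes. The consensus GRE searched for was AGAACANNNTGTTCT, which has 12 fixed positions and reads the same on both strands, and a match with at most 3 mismatches within 100 bp of a summit was counted as a GRE. A match describes the letters and is not a measured binding site. Each stretch is the plus strand of GRCm38, 5′ to 3′, with the 15 matched bases in capitals. Those of Kcne4 (chr1:78811983-78812047), Kcnj6 (chr16:94886900-94886964), Kcnn3 (chr3:89601407-89601471 and, distally, chr3:89671405-89671469), Kcnh2 (chr5:24350242-24350306), Kcnj12 (chr11:61060770-61060834), Kcnmb2 (chr3:31953643-31953707) and Kcnma1 (chr14:23479343-23479407) were chosen by a rule as sites of named genes with overlapping GR and MR CORT peaks and a GRE near the MR summit, in order of MR strength. Of the last 3, added after the values were seen, Kcnq3 (chr15:66238777-66238841) is shown because it carried a strong peak without a GRE, the weak Kcnj6 site (chr16:94947436-94947500) because it had the closest match of all, and the second match of Kcnh2 (chr5:24350311-24350375) because it lay nearer the GR summit.
Kcne4: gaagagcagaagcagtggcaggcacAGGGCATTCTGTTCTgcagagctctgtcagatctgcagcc
Kcnj6: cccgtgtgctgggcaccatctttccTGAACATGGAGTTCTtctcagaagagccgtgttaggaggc
Kcnn3: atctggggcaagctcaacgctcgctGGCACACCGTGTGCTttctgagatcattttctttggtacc
Kcnh2: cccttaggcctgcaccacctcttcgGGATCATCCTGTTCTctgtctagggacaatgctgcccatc
Kcnj12: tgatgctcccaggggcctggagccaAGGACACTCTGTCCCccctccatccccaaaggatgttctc
Kcnmb2: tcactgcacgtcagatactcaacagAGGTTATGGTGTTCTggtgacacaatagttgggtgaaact
Kcnn3 distal: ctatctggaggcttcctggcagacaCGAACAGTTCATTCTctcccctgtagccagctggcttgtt
Kcnma1: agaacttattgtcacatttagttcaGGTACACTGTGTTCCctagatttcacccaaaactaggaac
Kcnq3: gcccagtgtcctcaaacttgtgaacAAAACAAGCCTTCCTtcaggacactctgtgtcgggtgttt
Kcnj6 weak: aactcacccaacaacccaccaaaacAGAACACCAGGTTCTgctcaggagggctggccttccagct
Kcnh2 second match: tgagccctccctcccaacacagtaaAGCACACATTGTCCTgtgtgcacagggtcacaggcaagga

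The closest match of all lay at a weak site, which was added after the values were seen. Among the stretches chosen by the rule, those of the highest MR CORT −log10 p, Kcne4 and Kcnj6 (31.4 each), held 2 mismatches. That of the lowest, Kcnma1 (5.20), held 3, as did the stronger Kcnn3 site (22.9). The capitals of Kcne4, Kcnj6 and both Kcnh2 stretches held 2 mismatches to the consensus, and those of Kcnn3, Kcnj12, Kcnmb2 and Kcnma1 held 3. The best match within 100 bp of the Kcnq3 summit had 4 mismatches and was not counted as a GRE, although its MR CORT peak had a −log10 p of 24.5. The weak Kcnj6 site had 1 mismatch, the lowest number at any potassium channel peak, and an MR CORT peak of 5.31 with no GR peak. Both Kcnh2 matches lay under the same peaks, the first 16 bp from the MR CORT summit and the second 18 bp from the GR CORT summit. The match at Kcnj6 lay farther from its MR CORT summit, at 85 bp, and the one at Kcnmb2 at 91 bp. At Kcnmb2 and Kcnma1 the match lay under the GR CORT peak but outside the MR CORT peak. The match of the weak Kcnj6 site lay only partly under its MR CORT peak.

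Across potassium channel peaks as a whole, 21 of 57 GR CORT peaks (36.8%, 25.5 to 49.8) and 25 of 78 MR CORT peaks (32.1%, 22.7 to 43.0) held a GRE. Over all protein-coding genes the shares were 37.5% and 39.5%. Windows of the same length 1000 bp to either side of the potassium channel summits held a match in 21.1% (14.6 to 29.4) for GR and 16.7% (11.6 to 23.3) for MR. In the flanks of all peaks at protein-coding genes it was 14.6% and 15.0%. At the potassium channel genes the intervals of summit and flank windows overlapped for both receptors.

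After CORT, 25 of the 94 genes had a GR peak (26.6%, 18.7 to 36.3), and MR peaks lay at 27 (28.7%, 20.6 to 38.6), against 17.7% and 20.5% of all protein-coding genes. Potassium channel genes are long, with a median span of 30.8 kb against 17.4 kb for the others, and long genes hold more peaks. Shares of the other protein-coding genes standardised to the spans of the potassium channel genes were 22.3% for GR and 26.1% for MR, which lie inside the intervals. The remaining differences were 4.27 percentage points for GR and 2.67 for MR. With only peaks of −log10 q of at least 5, GR peaks lay at 11 genes and the GR difference was −1.86, and with summits inside the gene only the MR difference was −3.43, so the sign depended on these settings. Densities count a peak once for each gene it was assigned to and were not matched on span. Per megabase of gene and flank there were 5.03 GR and 6.88 MR peaks at potassium channel genes, and 6.45 and 8.67 at others.

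No potassium channel gene had a peak of either receptor after vehicle, which allows a share of up to 3.93% by the Wilson interval, where GR peaks lay at 0.0820% of all protein-coding genes and MR peaks at 0.0774%. After washout, 3 genes had a GR peak (3.19%, 1.09 to 8.97) against 0.670% of all protein-coding genes and a standardised share of 1.05%. At −log10 q of at least 5, GR was left at 1 gene. MR peaks after washout lay at 19 genes (20.2%, 13.3 to 29.4) against 9.41% of all and a standardised share of 13.7%, which was inside the interval by a small margin. The difference of 6.49 points was between 3.07 and 6.58 under the alternatives tried. Per megabase, counted in the same way, there were 2.47 MR washout peaks at potassium channel genes and 2.81 at others.

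**Figure D1:**
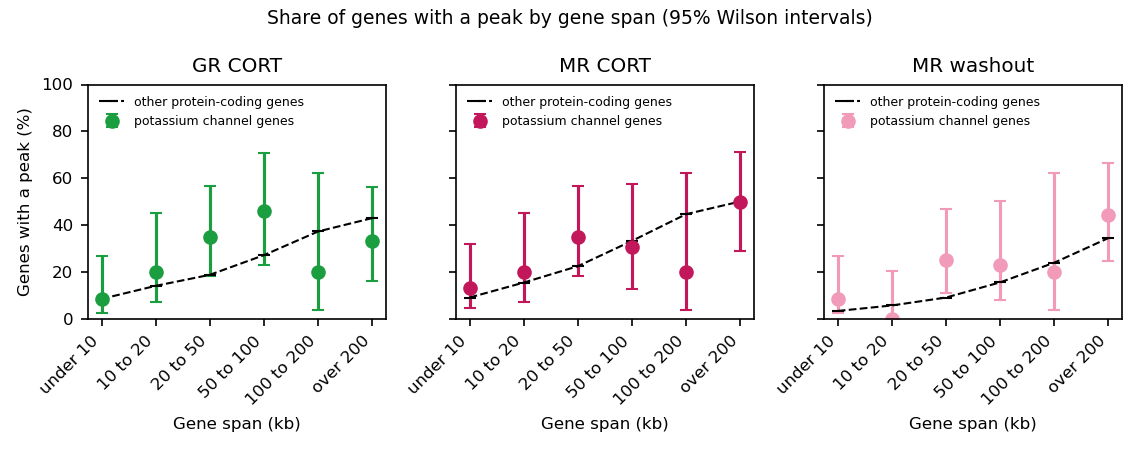
Share of genes with a peak (vertical axis, percent) by gene span (horizontal axis, kb) for GR after CORT, MR after CORT and MR after washout; points are the 94 potassium channel genes with 95% Wilson intervals and dashed lines are the other protein-coding genes. The lines climb with span, for MR after CORT from 9.13% to 50.1%, and the potassium channel genes lie on both sides of them.

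By span, the plot of shares shows where the potassium channel genes sat above or below genes of like size. Among the 20 genes of 20 to 50 kb, 35% (18.1 to 56.7) had a GR CORT peak and the same share an MR CORT peak, against 18.8% and 22.5% of other genes. Among the 18 genes over 200 kb, 33.3% (16.3 to 56.3) had a GR and 50% (29 to 71.0) an MR CORT peak, against 43.0% and 50.1%. MR washout peaks lay at 44.4% (24.6 to 66.3) of these longest genes, against 34.5%. All of these intervals hold the share of the other genes. Those for washout at 20 to 50 kb do not. There MR washout peaks lay at 5 of the 20 genes (25%, 11.2 to 46.9), against 9.12% of other genes. GR washout peaks lay at 2 of the 20 (2.79 to 30.1), against 0.487%. These counts are small and no test was made.

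The classes of channel subunit differed in how many genes had any CORT peak. Auxiliary subunits had the same share as calcium- or sodium-activated channels, 62.5%, as 10 of 16 genes (38.6 to 81.5) and 5 of 8 genes (30.6 to 86.3). The standardised shares for genes of like span were 29.7% for the first, outside its interval, and 41.2% for the second, inside it. Inward rectifiers followed with 5 of 15 genes (33.3%, 15.2 to 58.3, standardised share 25.2%). Pore-forming subunits of voltage-gated channels had 8 of 30 (26.7%, 14.2 to 44.4, standardised share 33.4%). The leak channels of the Kcnk family had 2 of 14 (14.3%, 4.01 to 39.9, standardised share 26.7%) and the electrically silent modifier subunits 1 of 10 (10%, 1.79 to 40.4, standardised share 21.4%). The classes are small and no test was made between them. Every CORT peak of the auxiliary genes Kcnab2, Kcnip1, Kcnip3 and Kcnip4 lay nearest the start of another gene. The class shares were not recomputed with peaks assigned by nearest start. The 1 Kcn gene outside these classes, Kcnrg, had no peak.

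**Figure D2:**
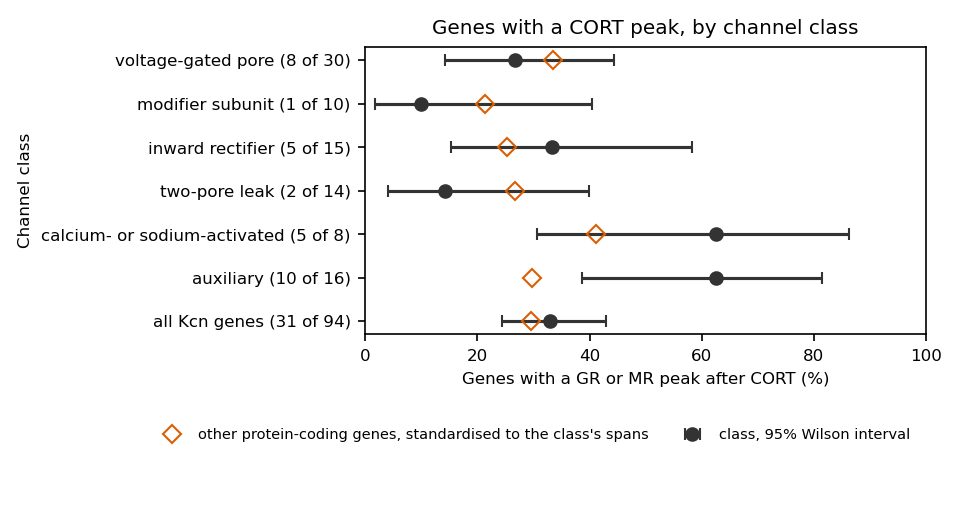
Percentage of genes with a GR or MR peak after CORT (horizontal axis) in each class of potassium channel gene (vertical axis, genes with a peak of genes in the class); circles with bars are the class with its 95% Wilson interval and open diamonds are other protein-coding genes standardised to the same spans. Only for the auxiliary subunits does the diamond, at 29.7%, lie outside the bar, which starts at 38.6%.

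Pore genes and the genes of their partner subunits are given here with the share of other genes of the same spans that had a CORT peak. All 3 Kcnab genes, which encode the cytoplasmic beta subunits of Shaker-type channels, had one (43.9% or more by the interval, standardised share 34.1%). None of the 8 Kcna genes, which encode the pores they bind, had one, but these genes are short, at 1.90 to 32.3 kb, and the standardised share of 15.5% was within the 32.4% that a count of 0 of 8 allows. Of the Kcnip genes, whose calcium-binding products assemble with Kv4 pores, 3 of 4 had a peak (30.1 to 95.4, standardised share 42.6%), and none of the 3 Kcnd genes that encode those pores did (up to 56.1%, standardised share 41.8%). In the large-conductance calcium-activated channel, the pore gene Kcnma1 and 2 of its 4 beta subunit genes (Kcnmb2 and Kcnmb4) had peaks, with a standardised share of 34.2% for the beta subunits. Other families with peaks included Kcnn with 3 of 4 genes (standardised share 37.1%), Kcne with 2 of 5 (13.2%), Kcnh with 2 of 8 (38%) and Kcnt with 1 of 2 (45.3%). With so few genes in a family the intervals are wide, and no family was tested against another. The CORT peaks of Kcnab2, and those of the 3 Kcnip genes with a peak, all lay nearest the start of another gene.

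**Figure D3:**
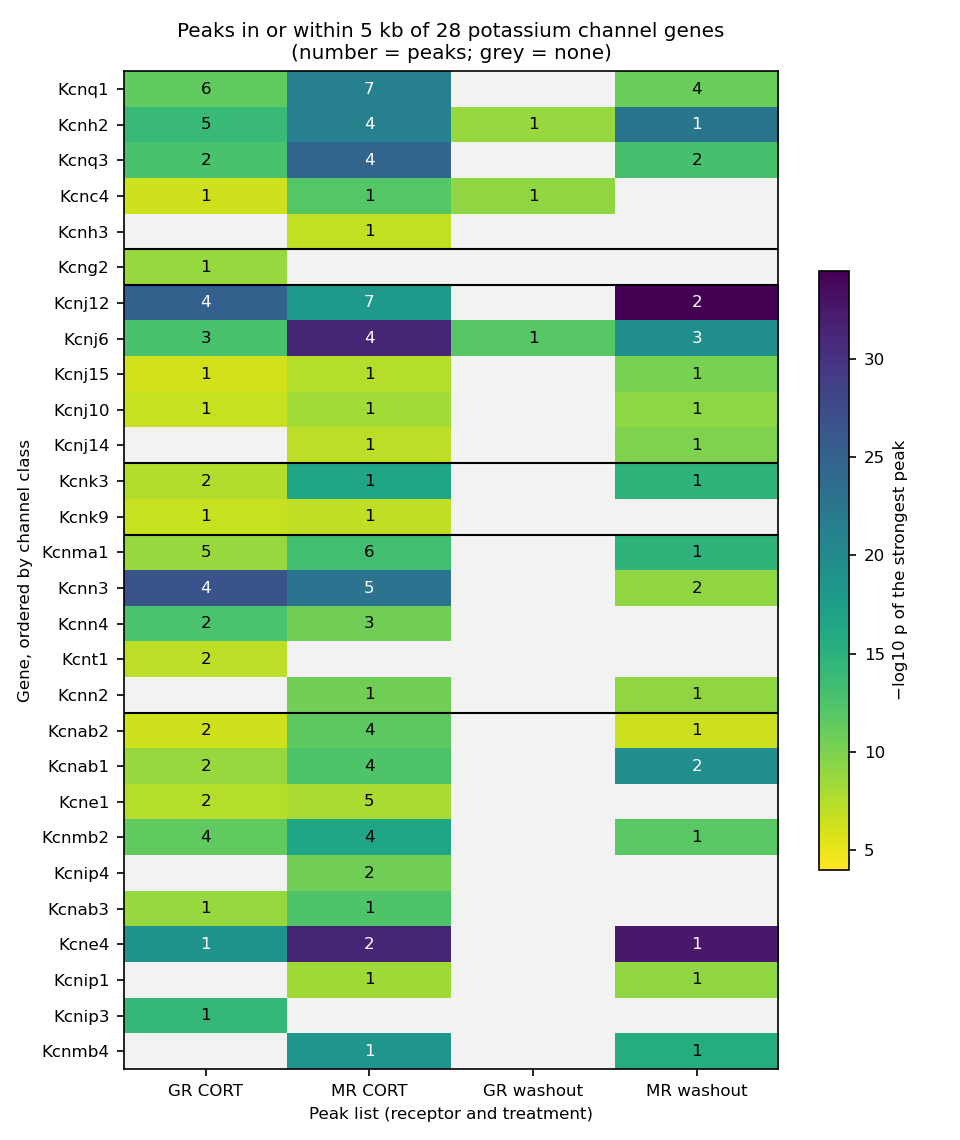
28 of the 31 potassium channel genes with a peak (vertical axis, ordered by channel class and separated by lines) in the 4 lists with any peak at these genes (horizontal axis); the number is the count of peaks, the colour is the −log10 p of the strongest and grey is none. Of the genes drawn, 25 have an MR peak after CORT and 18 after washout, and 22 have a GR peak after CORT and 3 after washout.

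Peaks were concentrated in a few genes. Overlapping GR and MR CORT peaks merged into 96 sites, and the 12 genes with most sites held 71 of them, while 13 genes had 1 site each. GR and MR were both found after CORT at 21 genes, 4 genes had GR peaks only (among them Kcng2, Kcnip3 and Kcnt1) and 6 had MR peaks only (Kcnh3, Kcnip1, Kcnip4, Kcnj14, Kcnmb4 and Kcnn2). By site, 36 of 96 (37.5%, 28.5 to 47.5) carried both receptors, 21 (21.9%) GR alone and 39 (40.6%) MR alone. Over all protein-coding genes these shares were 35%, 23.1% and 42%. The counts by gene (21, 4 and 6) and the concentration of sites in 12 genes were not compared with other genes. Those 12 genes spanned 13.5 kb (Kcne1) to 725 kb (Kcnma1), and long genes hold more peaks.

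Among pore-forming voltage-gated subunits, Kcnq1 had the most sites. Kcnq1 (chr7:143106362-143427042) encodes the slow delayed rectifier of heart and epithelia. It had 8 CORT sites from 6 GR and 7 MR peaks, spread through its introns from 59.3 kb to 289 kb past its start. The strongest was an MR CORT peak of 21.2 at chr7:143395142-143395334 with an overlapping GR CORT peak of 11.4, and an MR washout peak of 10.9 lay there. Gene assignment is ambiguous at this site, since the nearest annotated start belonged to Cdkn1c, which encodes a cell cycle inhibitor. The same held for every Kcnq1 CORT peak from 194 kb past the start onward. The other 3 MR washout peaks of Kcnq1 were 9.34, 7.79 and 7.69, each on an MR CORT peak. The MR washout peaks of 10.9 and 7.79 lay nearest the start of Cdkn1c.

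Kcnq3 encodes a subunit of the M-channel, a slow, receptor-regulated brake on neuronal firing. It had 5 CORT sites, of which the strongest (chr15:66238741-66238896, intronic, 47.8 kb past the start) had −log10 p of 24.5 for MR and 12.8 for GR after CORT and 12.9 for MR after washout. Kcnq5, which encodes another M-channel subunit, had no peak over 564 kb.

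Kcnh2, which encodes the ERG channel that repolarises heart muscle and some neurons, held 6 CORT sites in a gene of 32.0 kb and was 1 of 3 genes with GR after washout. Its leading site lay in an intron 1.24 kb past the start, by the GR CORT summit. There the −log10 p values were 13.9 for GR and 21.2 for MR after CORT, and 8.73 for GR and 22.6 for MR after washout. All 4 lists thus had a peak at this site and neither vehicle list did. The other 5 sites of Kcnh2, at 6.76 to 16.4 kb, had values of 6.54 to 13.4 after CORT and none had a peak after washout.

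Weaker peaks lay at other voltage-gated pore genes. Kcnc4, a fast-activating subunit, had 1 site past its end with a GR peak of 6.15 and an MR peak of 12 after CORT. Its GR washout peak of 9.10 overlapped neither of them. Kcnh3, a member of the ether-à-go-go group, had a single MR peak of 6.77. The one modifier subunit with a peak, Kcng2, had GR alone (8.76, intronic).

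Among inward rectifiers, Kcnj6 held an MR CORT peak as strong as that of the auxiliary gene Kcne4 described below. Kcnj6 (chr16:94748636-94997701) encodes a G protein-gated channel that mediates slow inhibition in neurons. Its leading site, in an intron 111 kb past the start, had −log10 p of 31.4 for MR (rank 154 of 14638) and 12.8 for GR after CORT. After washout the values were 19.3 for MR and 11.9 for GR, so this and the Kcnh2 site were the ones where a GR CORT peak was still overlapped after washout. A second intronic site, 103 kb past the start, had MR alone, at 26.2 after CORT and 11.8 after washout. The other 4 CORT sites of Kcnj6 had 1 receptor each, with values of 5.31 to 12.8, and none was present after washout. A further MR washout peak, of 9.01, lay 115 kb past the start where no CORT peak was called.

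Kcnj12, a strong inward rectifier, had 7 CORT sites in 48.6 kb (chr11:61022564-61071131). At its leading site, 38.2 kb past the start, GR was 25.1 and MR 18.0 after CORT. The MR washout peak there was 34.5, rank 37 of 4885 and the strongest washout peak at any potassium channel gene. The remaining 6 sites reached at most 12 after CORT and had no washout peak. Kcnj10, Kcnj14 and Kcnj15 each had 1 or 2 sites, with CORT values of 6.10 to 8.23, and each had 1 MR washout peak of 9.22 to 10.1 that overlapped no MR CORT peak.

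Of the Kcnk leak channels, the acid-sensitive Kcnk3 and Kcnk9 were the ones with peaks, both upstream of the start. Kcnk3 had 2 sites. The nearer, 0.929 kb upstream by the MR summit, had an MR peak of 16.5 and a GR peak of 7.38 after CORT and an MR peak of 14.7 after washout. The farther had GR alone at 7.57. Kcnk9 had GR at 6.52 and MR at 6.96, about 3.3 kb upstream, and nothing after washout. The remaining 12 leak channel genes had no peak.

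Calcium- and sodium-activated channels included the strongest GR peak of all. Kcnn3, a small-conductance channel that gives the after-hyperpolarisation of many neurons, had 7 CORT sites. At its leading site (chr3:89601368-89601516, intronic, 81.3 kb past the start) GR was 26.7, rank 123 of 10602, and MR was 22.9 after CORT. In contrast to Kcnj12, the MR washout peak there was weak within its list at 7.69 (rank 3444 of 4885). Kcnma1, the pore of the large-conductance channel, had 8 CORT sites over 725 kb, with GR peaks of 6.15 to 8.66 and MR peaks of 5.20 to 13.2. One of them kept MR after washout (14.7). Kcnn4 had 2 sites beyond its end with GR of 8.66 and 12.6 and MR of 5.31 to 10.6, where the nearest start was that of Smg9. Kcnn2 had MR peaks of 10.6 after CORT and 9.01 after washout at different places, and the sodium-activated Kcnt1 had GR alone at 5.97 and 7.07.

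**Figure D4:**
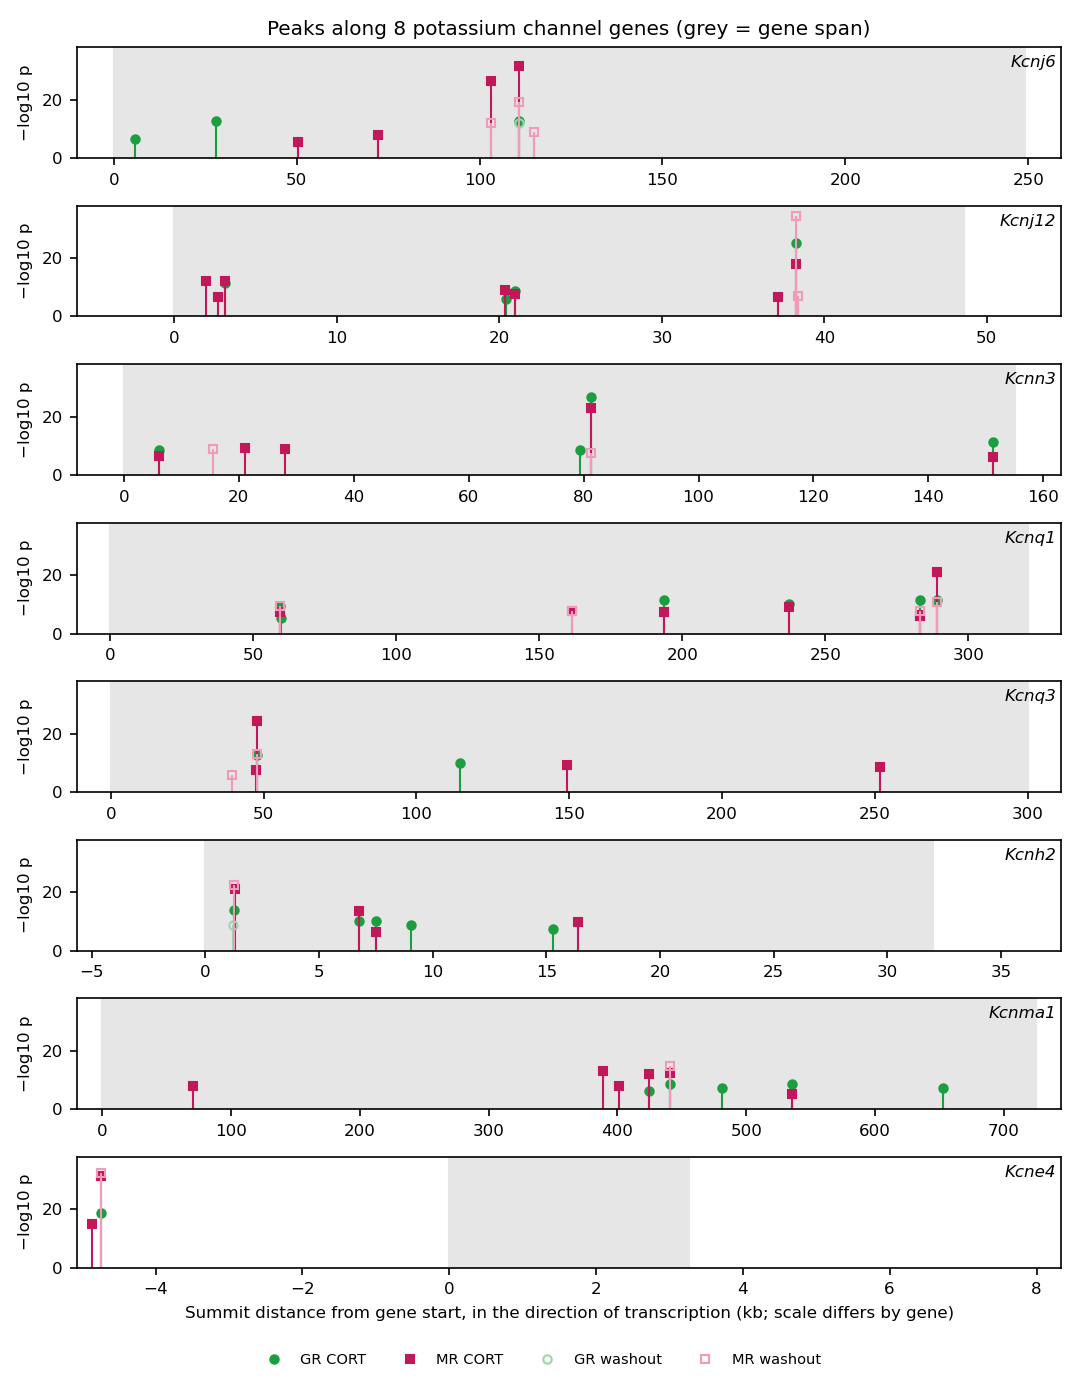
Summits along 8 potassium channel genes, as distance from the gene start in the direction of transcription (horizontal axis, kb, own scale for each gene) against −log10 p (vertical axis); circles are GR, squares are MR, filled symbols are CORT, open symbols are washout and grey is the gene. Kcnj6 has its own strongest CORT peak at 111 kb and Kcnj12 at 38.2 kb. In each gene drawn except Kcnma1, an open symbol lies at or beside the strongest CORT location of that gene.

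Among auxiliary subunits, Kcne4 had the strongest site. Kcne4 encodes a small membrane protein that inhibits Kcnq1 and other channels. Its single CORT site lay upstream of a gene of 3.27 kb, 4.74 kb from the start and so just inside the 5 kb limit. It had a GR CORT peak of 18.7, MR CORT peaks of 31.4 and 14.9 and an MR washout peak of 32.4, rank 56 of 4885. Kcne1, the partner of Kcnq1 in the slow delayed rectifier, had 5 sites of 5.30 to 7.83 and none after washout.

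The Kcnab and Kcnmb genes had more sites of moderate strength. Kcnab1 had 5 CORT sites. Its site 246 kb past the start, in an exon annotated as neither coding nor untranslated region, had GR at 8.66 and MR at 11.1 after CORT and MR at 19.5 after washout, where the nearest start was that of Ssr3. Kcnab2 had 6 sites with no overlap between receptors, GR at 5.31 and 6.15 and MR at 7.23 to 11.7. Kcnab3 was the one gene with both receptors within 0.2 kb of its start, GR at 8.66 and MR at 12.4, with a GRE of 2 mismatches, though the window also reached Cntrob and Trappc1. Kcnab3 is not among the genes the naming rule chose, and it was picked out after its values were seen. Kcnmb2 had 5 sites, the strongest with MR at 16.5 and GR at 11.4 after CORT and MR at 11.8 after washout. Kcnmb4 had MR alone just beyond its end, at 18.6 after CORT and 15.6 after washout.

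The 3 Kcnip genes with peaks had 1 receptor each. Kcnip3, whose product also acts as a calcium-regulated transcriptional repressor, had a single GR CORT peak of 14.2, the strongest GR peak at a potassium channel gene without MR. Kcnip4, the longest of all at 1135 kb, had MR peaks of 10.6 and 5.31, both nearer to the start of another gene. Kcnip1 had MR of 8.32 after CORT and 9.01 after washout at the same site.

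Most sites were inside introns. By location, 43 of 57 GR CORT peaks (75.4%) and 59 of 78 MR CORT peaks (75.6%) were intronic and none was in coding sequence. Within 5 kb of the gene start there were 11 GR and 17 MR CORT peaks, and within 1 kb 3 and 4. The nearest protein-coding start was that of the potassium channel gene for 45 of 57 GR peaks (78.9%) and 54 of 78 MR peaks (69.2%). The other peaks can be assigned to the channel gene only by lying in or near it, and 2 GR and 4 MR peaks were also in reach of another protein-coding gene. These location shares were not computed for peaks at other genes, so they are no trait of potassium channel genes.

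Of the GR CORT peaks, 36 of 57 (63.2%, 50.2 to 74.5) shared at least 1 bp with an MR CORT peak, and of the MR CORT peaks 39 of 78 (50%, 39.2 to 60.8) overlapped a GR CORT peak. For peaks at all protein-coding genes the shares were 60.6% and 47.6%, inside both intervals. After washout, 2 of the 57 GR CORT peaks (3.51%, 0.968 to 11.9) were overlapped by a GR peak, against 2.24%. MR was still found at 19 of 78 MR CORT peaks (24.4%, 16.2 to 34.9), against 24.1%.

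The MR CORT peaks with an MR washout peak were the stronger ones. Their −log10 p ranged from 5.88 to 31.4 with a median of 16.5 (n = 19), and those without ranged from 4.97 to 14.9 with a median of 7.83 (n = 59), so the ranges overlap. For MR CORT peaks at all protein-coding genes the medians were 13.4 with and 8.60 without an MR washout peak. Among the potassium channel peaks in the strongest 20% of MR CORT peaks, 12 of 14 (85.7%, 60.1 to 96.0) were overlapped after washout, and among the weaker ones 7 of 64 (10.9%, 5.40 to 20.9). At all protein-coding genes the corresponding shares were 61.4% and 14.8%. A strong peak is also the more likely to pass a threshold in a second list, and the part of depth in this was not tested. Of the 19 peaks present after washout, 14 (73.7%, 51.2 to 88.2) overlapped a GR CORT peak, and of the 59 absent, 25 (42.4%, 30.6 to 55.1). The same shares at all protein-coding genes were 77.9% and 38%, inside both intervals, so this split was not particular to potassium channel genes.

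**Figure D5:**
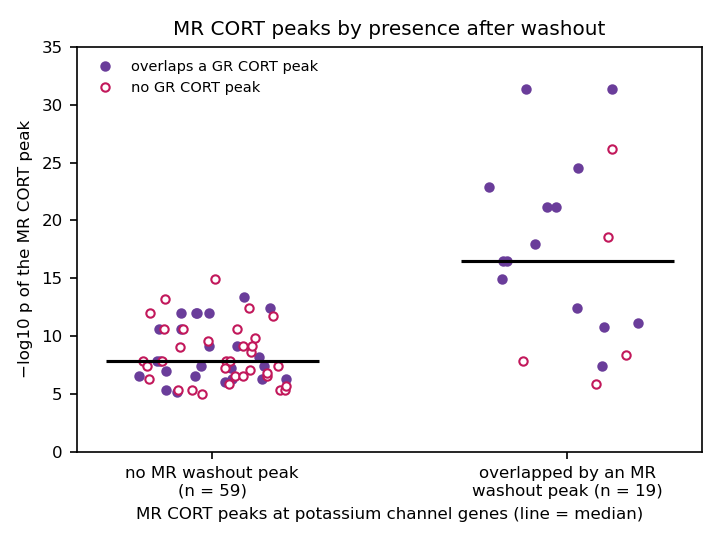
−log10 p of each MR CORT peak at potassium channel genes (vertical axis) for the 59 without and the 19 with an overlapping MR washout peak (horizontal axis, points spread sideways at random); filled points overlap a GR CORT peak, open points do not, and lines are medians. The medians are 7.83 and 16.5, and every peak above 14.9 has an MR washout peak.

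All 19 genes with an MR washout peak also had an MR CORT peak, but only at 14 of them did the peaks overlap. These counts by gene were not compared with other genes. The 5 without overlap were Kcnab2, Kcnj10, Kcnj14, Kcnj15 and Kcnn2. By peak, 19 of 28 MR washout peaks (67.9%, 49.3 to 82.1) lay on an MR CORT peak, against 75.8% at all protein-coding genes. At Kcnj15 the MR washout peak of 10.1 lay on a GR CORT peak of 6.10 instead, the 1 site of the 21 with GR alone that had MR after washout. That is 4.76% (0.846 to 22.7), against 5.39% of the sites with GR alone at all protein-coding genes.

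Border pairs, the stretches between exonuclease stops on opposite strands, gave a finer position for some sites. In the MR CORT list, 8 potassium channel genes (8.51%) had a border pair, against 5.71% of all protein-coding genes. No share of genes with a border pair was matched on span. At Kcnh2, Kcnj12, Kcnab3, Kcnq3 and Kcnj6 the pair lay under an MR CORT peak, and at Kcnh1, Kcnh8 and Kcnma1 under no peak. At Kcnj12 the pair spanned 9 bp after CORT and 34 bp after washout, and both overlapped the matched GRE shown above. At Kcnj6 the pair was 49 bp after CORT and 28 bp after washout, and only the second reached the match shown above. The CORT pair at Kcnj6 overlapped a different GRE match, which is not shown. At Kcne4 the washout pair of 21 bp overlapped its match, as did the CORT pair of 44 bp at Kcnh2. The MR vehicle list had pairs at 3 potassium channel genes (3.19%, against 1.61% of all protein-coding genes), none of them under a peak. No GR list had a pair at any of these genes. The GR CORT list used here is much shorter than the one the study describes and holds 139 pairs against 3285 for MR, and only 0.205% of protein-coding genes had a pair in it, so the absence of GR pairs says little about these genes. Input chromatin had 27, 19 and 15 pairs at these genes after vehicle, CORT and washout, but no receptor peak at them overlapped a pair of its own input.

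Some of the longest genes had no peak, although Kcnh1 and Kcnh8 among them had an MR CORT border pair. There were 9 genes over 200 kb with no peak in any list, of which the 5 longest were Kcnq5 (564 kb), Kcnd2 (514 kb), Kcnh7 (491 kb), Kcnb2 (436 kb) and Kcnh8 (376 kb). These encode an M-channel subunit, a transient A-type channel, a pair of channels of the ether-à-go-go group and a delayed rectifier. They were 9 of the 18 potassium channel genes of that length (50%, 29 to 71.0), and of 980 other protein-coding genes over 200 kb 449 had no peak in any list (45.8%, 42.7 to 48.9).

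Other ion channel genes gave a frame of reference. Of 14 voltage-gated sodium channel genes, 3 had a GR and 3 an MR CORT peak (21.4% each, 7.57 to 47.6). The shares of genes of the same spans were 28.3% and 33.6%. Of 26 voltage-gated calcium channel genes, 10 had a GR (38.5%, 22.4 to 57.5) and 9 an MR CORT peak (34.6%, 19.4 to 53.8), where genes of the same spans had 30.8% and 36.5%. All these standardised shares lie inside the intervals, and the intervals overlap those of the potassium channel genes. After washout MR was at 1 sodium (7.14%, 1.27 to 31.5) and 3 calcium channel genes (11.5%, 4.00 to 29), against standardised shares of 16.8% and 20.8%. The intervals overlap that of the potassium channel genes as well. Among 13 partners of potassium channels and relatives whose symbols do not start with Kcn, 4 had a GR CORT peak (30.8%, 12.7 to 57.6, standardised share 24.1%) and 2 an MR CORT peak (15.4%, 4.33 to 42.2, standardised share 28.3%). Abcc8, the sulfonylurea receptor of ATP-sensitive channels, had 4 CORT sites with GR up to 11.2 and MR up to 11.1. The pacemaker channel gene Hcn4 had 2 sites, with GR at 9.29 and MR up to 12.4, and both Abcc8 and Hcn4 had an MR washout peak, of 9.80 and 9.01. Dpp6, a partner of Kv4 channels, and Lrrc55, a partner of the large-conductance channel, had 1 GR peak each, of 7.38 and 7.57.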

How the data were processed

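Per the study's methods and the labels, the authors aligned reads to mm10 with Bowtie2, removed PCR duplicates by random barcode, combined the 3 replicates of each condition and called peaks with MACS2 2.1.1.20160309 against input at a false discovery rate of 0.05. The deposited peak lists give positions, a score, and −log10 p and −log10 q values. Some headers of these files are wrong: by its values, −log10 q stands where a header announces fold enrichment and the last column holds the summit's offset. The deposited border pairs come from MACE, and their positions were used, not their p-values. The study gives mapped reads per treatment, but the files used here hold no read counts, so no value was adjusted for depth. The GR CORT list of border pairs used here is shorter than the study describes.

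Samples were grouped by the labels' antibody and treatment, as 6 peak lists and 9 lists of border pairs. Positions are printed 1-based. Shares of other genes were standardised by taking their share in 6 span classes, bounded at 10, 20, 50, 100 and 200 kb, weighted by the potassium channel genes in each. Named genes are the 12 with most CORT sites, those of the 8 strongest GR CORT, MR CORT and MR washout peaks, those with a GR washout peak, the leading gene of each class, the 5 longest without peaks and partner genes with a CORT peak. Further genes with a peak are given briefly, outside that rule. Some genes that the rule names, or that have a peak, are not reported here singly, but they are in the counts. The members, lists and comparisons were chosen with earlier results of these data known. No test was made, because each condition has 1 list. Alternatives changed the −log10 q, the distance to a gene, the assignment, the overlap, the number of peaks and the motif. Sequence was read from GRCm38, and the scripts were tested on simulated data. Python 3.11.15, numpy 2.4.6, pandas 2.3.3, scipy 1.17.1 and matplotlib 3.10.9 were used.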

Additional observations from a re-analysis of the deposited data

How the results depend on the processing

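Of 87 alternatives to 13 results, 74 stayed inside the interval of the reported value, 11 moved outside it and 2 changed sign. With −log10 q of at least 5, genes with a peak fell to 11.7% for GR after CORT, 20.2% for MR after CORT and 1.06% for GR after washout, the GR CORT share minus its standardised share became −1.86 points, and the share of MR CORT peaks with an MR washout peak became 36.8%. Fewer peaks enter at that threshold. With summits inside the gene only, 18.1% of genes had an MR CORT peak and its difference from the standardised share became −3.43 points. The share of peaks with a GRE was set by the mismatches: GR peaks gave 14.0% at no more than 2 and 84.2% at no more than 4, and MR peaks gave 7.69% and 79.5%. A window of 50 bp gave 21.1% for GR and one of 200 bp gave 48.7% for MR. Changing the distance to 10 kb, using any base of a peak, the nearest start, 20 span classes or equal numbers of peaks, or leaving out peaks on input border pairs or on vehicle peaks, moved no value outside its interval. No paired analysis was possible because the replicates of each condition were combined before peaks were called, and for the same reason no replicate could be left out. Depth limits which weak peaks enter a list, and the lists hold no read counts by which to adjust for it.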
